A study of Mus musculus with 6 samples.

Results

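The tumor necrosis factor (TNF) superfamily was examined in RNA-seq data of gWAT, the gonadal white adipose tissue that forms the visceral depot around the reproductive tract of the mouse. Members were chosen by symbol after the NCBI gene identifiers of the deposited count table had been mapped to mouse gene names. They comprised every gene named Tnfsf or Tnfrsf with a number, and Tnf, Lta, Ltb, Ltbr, Fas, Fasl, Cd40, Cd40lg, Cd27, Eda and Edar. This gave 42 of the 19790 genes in the table, 17 of them ligands and 25 receptors. Cd70, which the rule also names, was not analysed here. The gWAT came from wild-type C57BL/6 mice without any transgene. The groups were 3 mice on normal chow (NCD) and 3 mice on high-fat feed (HFD), and feeding lasted 8 weeks. The mice were 6 weeks old according to the sample labels, whereas the methods of the study name a later age for the start of the HFD. Each library was 1 mouse, and whole tissue was sequenced, so adipocytes, stromal cells, vessels and leukocytes all contributed RNA.

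TNF superfamily ligands are made as trimers, mostly anchored in the cell membrane, and some are released by proteases such as ADAM17. Their receptors either recruit TRAF adaptors and switch on NF-κB and MAP kinases, or carry a death domain through which FADD, RIPK and caspase proteins are engaged. In obese adipose tissue TNF is known as a cytokine of infiltrating macrophages that impairs insulin signaling in adipocytes. Decoy receptors such as osteoprotegerin bind ligands without passing on a signal.

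Total counts were between 49575113 and 66360046 per library, and a single count was worth between 0.0151 and 0.0202 counts per 1000000 (CPM). NCD replicate 1 stood apart, with 58.6% of its counts on 11 secretory genes of the seminal vesicle, against 11.2% and 2.30% in NCD replicates 2 and 3 and 6, 8 and 2 counts in the HFD libraries. Levels are given as CPM scaled by the trimmed mean of M-values (TMM), and every edgeR test was run with 6 mice and again without NCD replicate 1. The 6 adipocyte markers examined, Adipoq and Plin1 among them, were detected in every library and summed to between 1983 and 10544 scaled CPM. In whole tissue, fewer cells of a type and less RNA per cell cannot be told apart.

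Of the 38 members with enough counts for the test, 9 were higher in gWAT of HFD-fed mice and 0 were lower at an adjusted p under 0.05 (quasi-likelihood test of edgeR, Benjamini-Hochberg adjustment over 15241 genes). Among all genes tested, 5.58% were higher and 1.90% lower. The ligands Tnf and Tnfsf12 made up 2 of 14 tested ligands. The receptors Tnfrsf1b, Tnfrsf11a, Tnfrsf11b, Tnfrsf12a, Cd40, Tnfrsf23 and Tnfrsf26 made up 7 of 24 tested receptors. At an unadjusted p under 0.05 in edgeR, 17 of the 38 members passed, where 29.7% of all genes did so. The log2 fold change was positive in 31 of the 38 members, with a median of 0.62, against a median of -0.08 over all genes. Without NCD replicate 1, the same 9 and also Tnfsf13, Tnfsf15 and Tnfsf18 were higher, 12 of 40 members where 10.7% of all genes were. Tnfrsf19 was then lower, 1 member where 10.1% of all genes were lower. Tnfsf15, Tnfsf18 and Cd40lg reached the minimum count in HFD libraries alone and Tnfrsf19 in NCD libraries alone, so these genes entered the test through the diet on which they were high, and their calls are no support for a difference. None of the 9 members passed in fits that instead dropped 1 of the remaining 5 mice, where only 2 to 7 genes in all passed. The 9 members then had edgeR adjusted p-values from 0.0561 to 0.154 and unadjusted p-values of at most 0.0111 in edgeR. The scaled CPM of every HFD-fed mouse lay above those of every NCD-fed mouse in 18 of the 38 members, where 20.5% of all genes did so. They lay below in 1 member, Tnfrsf19, where 18.7% of all genes did so.

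**Figure D1:**
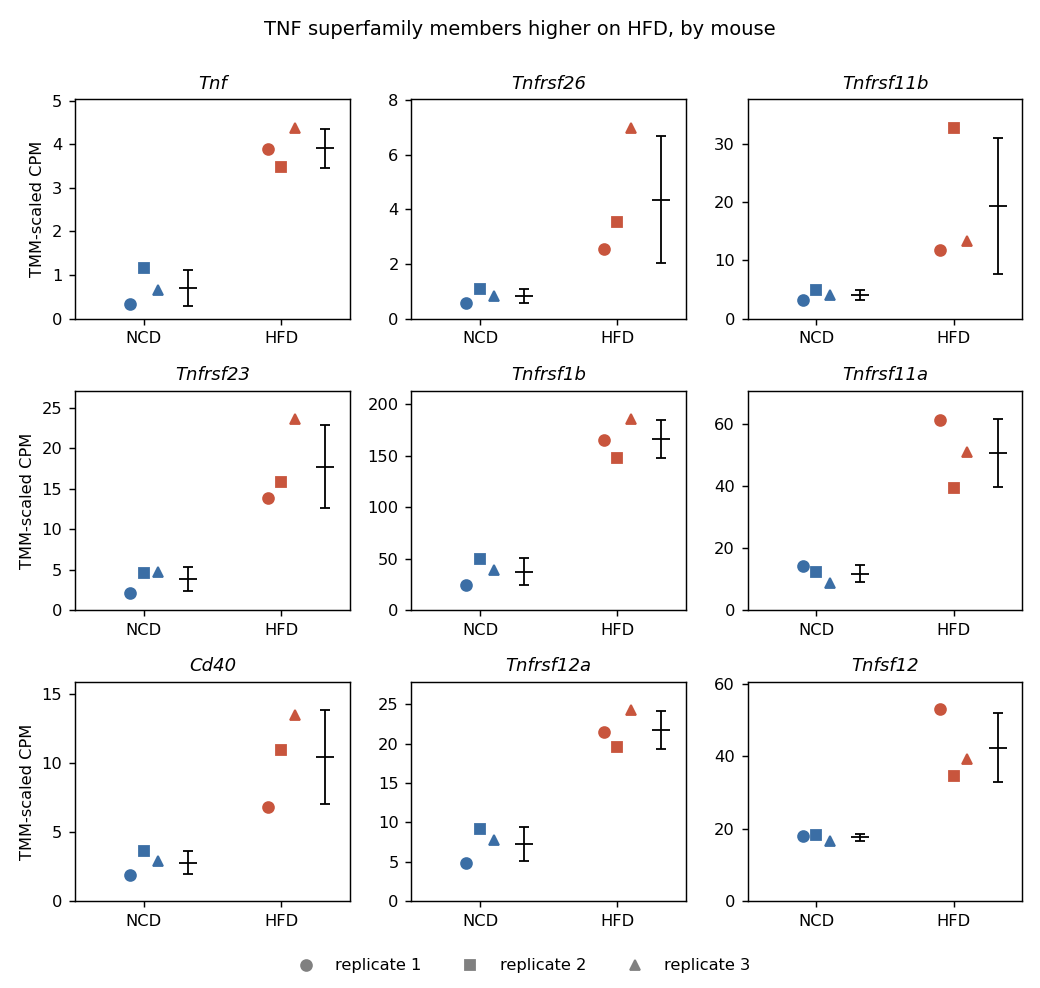
TMM-scaled CPM of the 9 members with an edgeR adjusted p under 0.05, with a point for each mouse (NCD blue, HFD red, a symbol for each replicate) and the mean ± SD of 3 mice beside them, each panel on its own axis from 0. In all 9 panels the lowest HFD-fed mouse is above the highest NCD-fed mouse, and the points of Tnfrsf11b and Tnfrsf26 on HFD are spread the most relative to their mean.

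Tnf (NCBI gene 21926), the founding cytokine of the family, was low in this tissue, with 11, 69 and 35 counts in NCD replicates 1, 2 and 3 and 224, 290 and 274 in HFD replicates 1, 2 and 3. Scaled, these were 0.335, 1.15 and 0.651 CPM on NCD and 3.88, 3.48 and 4.37 CPM on HFD. The HFD-fed mice lay close together and well above all NCD-fed mice, of which NCD replicate 1 was the lowest. The log2 fold change was 2.44 (SE 0.490, edgeR adjusted p = 0.0417), and 2.13 without NCD replicate 1 (SE 0.361, edgeR adjusted p = 0.0159). Tnfrsf1b (NCBI gene 21938), the TNF receptor without a death domain, rose from 24.1, 49.5 and 38.8 scaled CPM on NCD to 165, 148 and 186 on HFD. The diets were far apart and the log2 fold change was 2.15 (SE 0.291, edgeR adjusted p = 0.0219). Without NCD replicate 1 it was 1.93 (SE 0.179, edgeR adjusted p = 0.00618). Tnfrsf1a, the death domain receptor of TNF that most cell types carry, was at 94.0, 200 and 211 scaled CPM on NCD and at 209, 310 and 346 on HFD. Its diets overlapped, since NCD replicate 3 lay above HFD replicate 1, and the log2 fold change of 0.78 did not pass (SE 0.369, edgeR adjusted p = 0.218).

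The balance between both TNF receptors can be read within a library, where the scaling between libraries plays no role. The ratio of Tnfrsf1b to Tnfrsf1a, in counts per exon length, was 0.145, 0.140 and 0.104 in NCD replicates 1, 2 and 3 and 0.447, 0.270 and 0.304 in HFD replicates 1, 2 and 3. Tnfrsf1a thus remained the more abundant receptor in all 6 mice. The ratio was higher on HFD in every mouse (p = 0.1 from an exact permutation test, two-sided, the lowest p open to 3 mice against 3), with a difference of mean log2 ratios of 1.37.

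The TWEAK pair rose on both sides. Tnfsf12 (NCBI gene 21944) encodes TWEAK, a ligand made by leukocytes and other cells, and was the ligand with the highest level per exon length on both diets. It was at 18.2, 18.2 and 16.5 scaled CPM on NCD and at 53.1, 34.7 and 39.4 on HFD. The NCD-fed mice, the library rich in seminal vesicle RNA included, were almost alike, and every HFD-fed mouse was higher. The log2 fold change was 1.27 (SE 0.195, edgeR adjusted p = 0.0249), and 1.30 without NCD replicate 1 (SE 0.208, edgeR adjusted p = 0.0140). Its receptor Tnfrsf12a (NCBI gene 27279), known as Fn14 and induced by injury and growth factors, went from 4.87, 9.18 and 7.76 scaled CPM to 21.4, 19.5 and 24.3. All HFD values exceeded all NCD values (log2 fold change 1.58, SE 0.273, edgeR adjusted p = 0.0300), also without NCD replicate 1 (1.37, SE 0.169, edgeR adjusted p = 0.00833). The ratio of Tnfrsf12a to Tnfsf12 per exon length overlapped between the diets, at 0.362, 0.681 and 0.634 on NCD and 0.545, 0.760 and 0.833 on HFD (exact two-sided permutation test, p = 0.4).

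Tnfsf13, next to Tnfsf12 on chromosome 11, encodes APRIL, a survival factor of plasma cells. It was at 2.62, 5.94 and 6.40 scaled CPM on NCD and at 17.5, 13.9 and 14.5 on HFD. The diets did not overlap, but the log2 fold change of 1.61 narrowly missed the threshold with 6 mice (SE 0.368, edgeR adjusted p = 0.0528). It passed without NCD replicate 1, the lowest mouse (1.32, SE 0.173, edgeR adjusted p = 0.00919). In GENCODE vM21, 50.7% of the exon length of Tnfsf12 and 60.0% of that of Tnfsf13 are shared on the same strand with Tnfsfm13, a readthrough transcript of both genes that has its own line in the table. The sources used here do not say how reads on the shared exons were assigned, so the split of counts between these 3 genes is uncertain. Tnfsfm13 itself was at 9.65, 9.68 and 9.19 scaled CPM on NCD and 29.3, 16.4 and 16.4 on HFD (log2 fold change 1.12, SE 0.274, edgeR adjusted p = 0.0610).

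Of the RANK system, both receptors rose and the ligand was near the limit of detection. Tnfrsf11a (NCBI gene 21934) encodes RANK, the receptor that drives the formation of osteoclasts. It was at 14.3, 12.3 and 8.63 scaled CPM on NCD and at 61.3, 39.3 and 50.9 on HFD. No other member had a smaller adjusted p with 6 mice (log2 fold change 2.11, SE 0.264, edgeR adjusted p = 0.0214), and without NCD replicate 1, the highest NCD-fed mouse, the log2 fold change was 2.29 (SE 0.261, edgeR adjusted p = 0.00735). Tnfrsf11b (NCBI gene 18383) encodes osteoprotegerin, the secreted decoy receptor for RANK ligand and TRAIL. Its level went from 3.14, 4.88 and 4.02 scaled CPM on NCD to 11.8, 32.8 and 13.3 on HFD. HFD replicate 2 was well above the other HFD-fed mice, and all of them were above the NCD-fed mice (log2 fold change 2.26, SE 0.463, edgeR adjusted p = 0.0430). The mesothelial marker sum was also highest in HFD replicate 2, at 489 scaled CPM. It was 88 to 213 in the NCD libraries and 152 and 211 in the other HFD libraries. The stromal marker sum was highest there too, at 1489, against 859 to 1153 on NCD and 1341 and 1011 in the other HFD libraries. Among HFD libraries alone, so was the epithelial sum, at 115 against 26.9 and 39.1. The part of these cells in the Tnfrsf11b value was not tested. Tnfsf11, RANK ligand itself, had 7, 13 and 14 counts on NCD and 7, 22 and 40 on HFD. These few counts overlapped between the diets (log2 fold change 0.56, SE 0.672, edgeR adjusted p = 0.604).

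Cd40 (NCBI gene 21939), a co-stimulatory receptor of macrophages, dendritic cells and B cells, was at 1.92, 3.63 and 2.90 scaled CPM on NCD and at 6.81, 11.0 and 13.5 on HFD. All HFD-fed mice were above the NCD-fed mice (log2 fold change 1.89, SE 0.373, edgeR adjusted p = 0.0402), and without NCD replicate 1 the log2 fold change was 1.69 (SE 0.346, edgeR adjusted p = 0.0255). Its ligand Cd40lg, made by activated T cells, had 0, 7 and 0 counts on NCD and 2, 14 and 12 on HFD, too few for the test with 6 mice. Fas, the death receptor for Fas ligand, was at 35.9, 22.7 and 30.7 scaled CPM on NCD and at 31.3, 31.5 and 35.7 on HFD, with overlapping diets (log2 fold change 0.14, SE 0.199, edgeR adjusted p = 0.664). Fasl, its ligand on cytotoxic lymphocytes, was at 0.792, 0.569 and 0.521 scaled CPM on NCD and 0.451, 0.635 and 1.00 on HFD. Neither gene of this pair passed in either fit.

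Tnfrsf23 (NCBI gene 79201) and Tnfrsf26 (NCBI gene 244237) lie with Tnfrsf22 in a cluster of related mouse genes on chromosome 7 (GRCm38, chr7:143607685-143686436). Tnfrsf22 and Tnfrsf23 encode decoy receptors for TRAIL. Tnfrsf23 was at 2.13, 4.62 and 4.73 scaled CPM on NCD and 13.8, 15.8 and 23.6 on HFD, and Tnfrsf26 at 0.579, 1.07 and 0.837 on NCD and 2.55, 3.52 and 6.97 on HFD. In both genes HFD replicate 3 was the highest and every HFD-fed mouse was above the NCD-fed mice. The log2 fold changes were 2.21 for Tnfrsf23 (SE 0.393, edgeR adjusted p = 0.0320) and 2.38 for Tnfrsf26 (SE 0.493, edgeR adjusted p = 0.0442). Tnfrsf22 also did not overlap between the diets, at 3.81, 8.93 and 8.97 scaled CPM on NCD and 11.0, 10.5 and 11.8 on HFD, but its log2 fold change of 0.61 did not pass (SE 0.355, edgeR adjusted p = 0.293). Within a library the ratio of Tnfrsf23 to Tnfrsf22 per exon length was 1.60, 1.48 and 1.51 on NCD and 3.59, 4.30 and 5.71 on HFD. The NCD-fed mice agreed closely in this ratio, NCD replicate 1 included, and all HFD-fed mice were higher (p = 0.1 from the exact permutation test, the lowest possible). Since these genes are near copies of each other, reads shared between them may have been split, and 11.1% of the exon length of Tnfrsf23 and 3.33% of that of Tnfrsf26 overlap a gene on the opposite strand. Tnfrsf10b, the signaling TRAIL receptor of the mouse, had a log2 fold change of 0.98 that did not pass (SE 0.318, edgeR adjusted p = 0.108), and the TRAIL gene Tnfsf10 one of 0.63 (SE 0.255, edgeR adjusted p = 0.161).

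**Figure D2:**
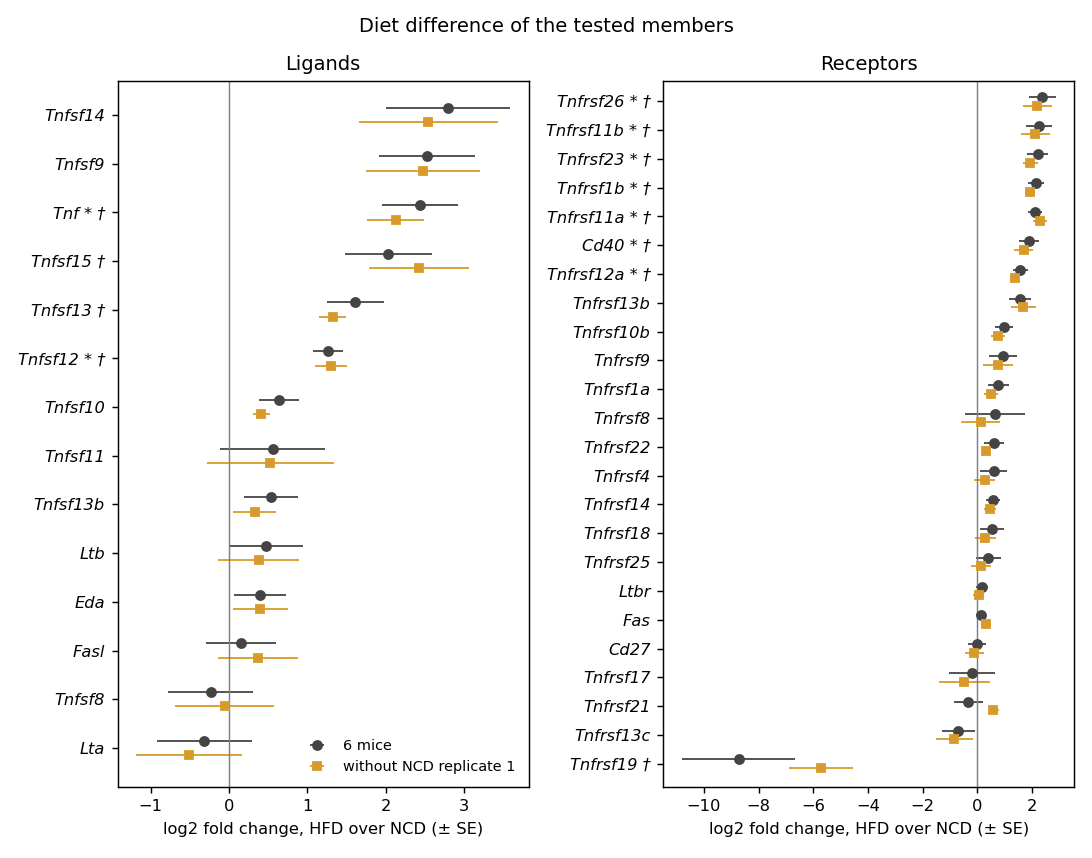
Log2 fold change of HFD over NCD ± SE from edgeR for the 14 ligands and 24 receptors tested with 6 mice (grey circles), and the same without NCD replicate 1 (yellow squares), with different ranges on the axes of the panels. A star marks an adjusted p under 0.05 with 6 mice and a dagger one without NCD replicate 1. Most members lie to the right of 0, Tnfrsf21 changes side between the fits, and Tnfrsf19 lies far to the left.

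Among the other ligands, 3 had log2 fold changes above 2 and few counts. Tnfsf14, which encodes LIGHT, was at 0.396, 0.953 and 0.744 scaled CPM on NCD and 1.30, 3.76 and 9.61 on HFD, and it did not pass (log2 fold change 2.79, SE 0.792, edgeR adjusted p = 0.0812). Tnfsf9, the ligand of the co-stimulatory receptor 4-1BB, was at 0.426, 0.585 and 0.409 on NCD and 0.936, 2.98 and 4.29 on HFD (2.52, SE 0.612, edgeR adjusted p = 0.0604). In both genes the diets did not overlap and HFD replicate 3 was the highest. Tnfsf15, encoding TL1A, had 7, 5 and 7 counts on NCD and 20, 57 and 43 on HFD, a log2 fold change of 2.03 (SE 0.555, edgeR adjusted p = 0.0760) with 6 mice and of 2.42 without NCD replicate 1 (SE 0.636, edgeR adjusted p = 0.0479). Tnfsf18, the ligand of the receptor GITR, had 0 counts in each NCD library and 8, 22 and 10 counts on HFD. Its mean level on HFD was 2.85 times a floor of 3 counts in each NCD library. This floor covers counting error and not the spread between mice. Tnfsf18 entered the test without NCD replicate 1, through its HFD counts alone, so neither its call nor this multiple is support for a difference.

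Other ligands and receptors of lymphocytes did not pass in either fit. Tnfsf13b, encoding the B cell survival factor BAFF, was at 2.41, 4.18 and 4.45 scaled CPM on NCD and 4.06, 6.77 and 5.24 on HFD, with overlapping diets (log2 fold change 0.54, SE 0.345, edgeR adjusted p = 0.334). Its receptor gene Tnfrsf13c, expressed by B cells, was at 0.700, 0.769 and 1.32 on NCD and 0.295, 0.372 and 1.07 on HFD (log2 fold change -0.69, SE 0.614, edgeR adjusted p = 0.481). Cd27, a receptor of T and B cells, differed by -0.02 on the log2 scale (SE 0.331). Tnfrsf13b, which encodes the APRIL and BAFF receptor TACI, missed the threshold with a log2 fold change of 1.57 (SE 0.393, edgeR adjusted p = 0.0638). The remaining members, Tnfrsf4, Tnfrsf8, Tnfrsf9, Tnfrsf14, Tnfrsf17, Tnfrsf18, Tnfrsf25, Tnfsf8, Lta, Ltb and Eda, had log2 fold changes between -0.31 and 0.95 and edgeR adjusted p-values of at least 0.190 with 6 mice. Tnfsf4 was not tested in either fit, with 0, 6 and 0 counts on NCD and 6, 7 and 41 on HFD. The T cell markers summed to between 9.14 and 15.3 scaled CPM on NCD and between 10.1 and 16.0 on HFD, and the B cell markers to between 4.20 and 17.8 and between 5.55 and 17.9.

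Macrophage markers moved with the members that rose. The 8 markers examined (Adgre1, Cd68, Itgam, Csf1r, Cd14, Mrc1, Fcgr1 and C1qa) summed to between 288 and 641 scaled CPM on NCD and between 1957 and 2475 on HFD, each marker was higher in every HFD-fed mouse, and none was at 0 in a library. Of these markers, 5 passed the edgeR test with 6 mice and 8 without NCD replicate 1. The counts of each of the 9 members were therefore also set against the summed macrophage marker counts of the same library, a measure chosen after the values had been seen. Tnfrsf1b had 83.8, 77.2 and 68.6 counts per 1000 macrophage marker counts on NCD and 70.4, 75.7 and 75.1 on HFD. Tnf had 1.16, 1.80 and 1.15 on NCD and 1.66, 1.78 and 1.76 on HFD. Tnfrsf11a had 49.5, 19.2 and 15.3 on NCD and 26.2, 20.1 and 20.6 on HFD, so its diets overlapped through NCD replicate 1 alone. Relative to these markers, 7 of the 9 members, Tnfrsf11a included, overlapped between the diets with 6 mice, and the share over all genes was not computed. The exceptions were the TWEAK pair, which was lower on HFD relative to the markers in every mouse. Tnfsf12 and Tnfrsf12a also had the smallest log2 fold changes of the 9 members (1.27 and 1.58 with 6 mice). A gene that rises less than the marker sum falls relative to it, so this is not a trait particular to the pair. Tnfsf12 had 63.1, 28.4 and 29.3 counts per 1000 macrophage marker counts on NCD and 22.7, 17.7 and 15.9 on HFD, and Tnfrsf12a had 16.9, 14.3 and 13.7 on NCD and 9.14, 9.97 and 9.81 on HFD (p = 0.1 for each from the exact permutation test, the lowest possible). The marker sums of natural killer cells and dendritic cells were also higher in every HFD-fed mouse. They were narrowly so, at 16.6 to 22.2 against 11.6 to 16.6 scaled CPM for natural killer cells and 18.8 to 22.6 against 11.9 to 16.9 for dendritic cells. Taken singly, 2 of 4 natural killer and 1 of 4 dendritic cell markers were higher in every HFD-fed mouse, where 20.5% of all genes were. In edgeR with 6 mice, 0 markers of either list passed. The part of these cells in the members' values was not tested.

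**Figure D3:**
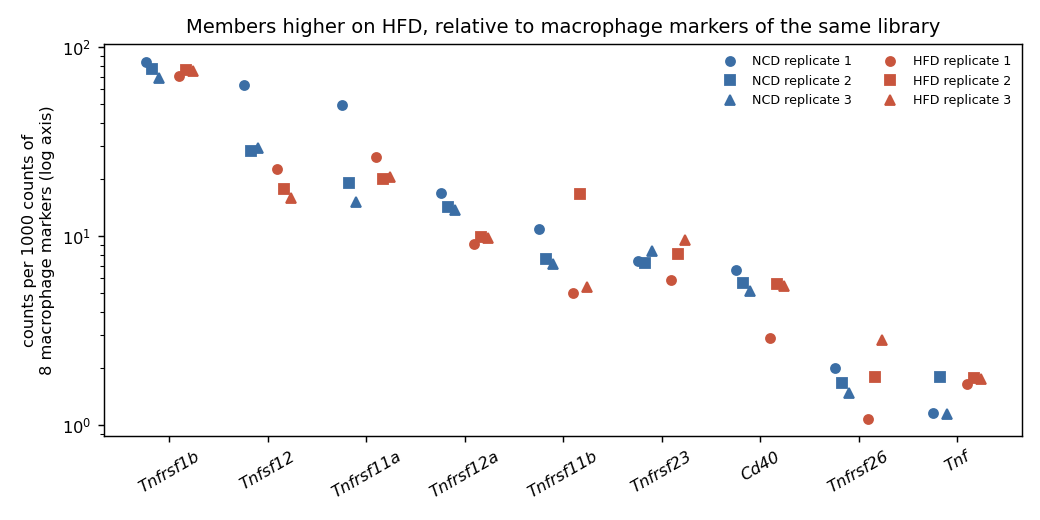
Counts of each of the 9 members per 1000 counts of 8 macrophage markers in the same library, on a log axis, with a point for each mouse (NCD blue, HFD red). The diets overlap for 7 members, for Tnfrsf11a through NCD replicate 1 alone, and the HFD points of Tnfsf12 and Tnfrsf12a lie below their NCD points.

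Tnfrsf19, an orphan receptor of epithelial and stem cells also known as TROY, was the member with the largest difference. The NCD libraries held 104, 7.98 and 1.47 scaled CPM in the order of their replicate numbers, and the HFD libraries 0.139, 0.120 and 0. The NCD libraries were ordered as their share of seminal vesicle secretory RNA was, and all HFD libraries were at 10 counts or fewer. The log2 fold change was -8.73 with 6 mice (SE 2.07, edgeR adjusted p = 0.0572) and -5.72 without NCD replicate 1 (SE 1.16, edgeR adjusted p = 0.0253). Per 1000000 counts of the 11 secretory genes, Tnfrsf19 had 88.3, 72.5 and 68.4 counts in NCD replicates 1, 2 and 3, whereas its scaled CPM differed by 71.0-fold between NCD replicates 1 and 3. On the same measure Edar had 1.78, 2.43 and 4.33 counts and Tnfrsf21 had 93.1, 322 and 1223. The Edar ratios rest on few counts, and whether they differ beyond counting error was not tested. Tnfrsf21 was also present in the HFD libraries, which held almost no secretory RNA. The part of seminal vesicle RNA in the levels of Tnfrsf19, Edar and Tnfrsf21 was not tested. Every NCD library held more secretory RNA than any HFD library, so between the groups it cannot be told apart from diet. Edar, the ectodysplasin receptor of ectodermal epithelium, had 69, 16 and 5 counts on NCD and 0, 0 and 5 on HFD, too few for edgeR. DESeq2, run without the minimum count, called it lower with 6 mice (log2 fold change -4.94, SE 1.83, DESeq2 adjusted p = 0.0333) but not without NCD replicate 1. Tnfrsf21, a death domain receptor known as DR6, was at 110, 35.4 and 26.3 scaled CPM on NCD and at 51.9, 38.0 and 47.5 on HFD. Its log2 fold change was -0.32 with 6 mice and 0.58 without NCD replicate 1, and neither passed (edgeR adjusted p = 0.718 and 0.0870). The epithelial marker sum reached 1090 scaled CPM in NCD replicate 1, with 26.9 to 115 in the other libraries, and the smooth muscle marker sum was 5778 there against 215 to 697.

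**Figure D4:**
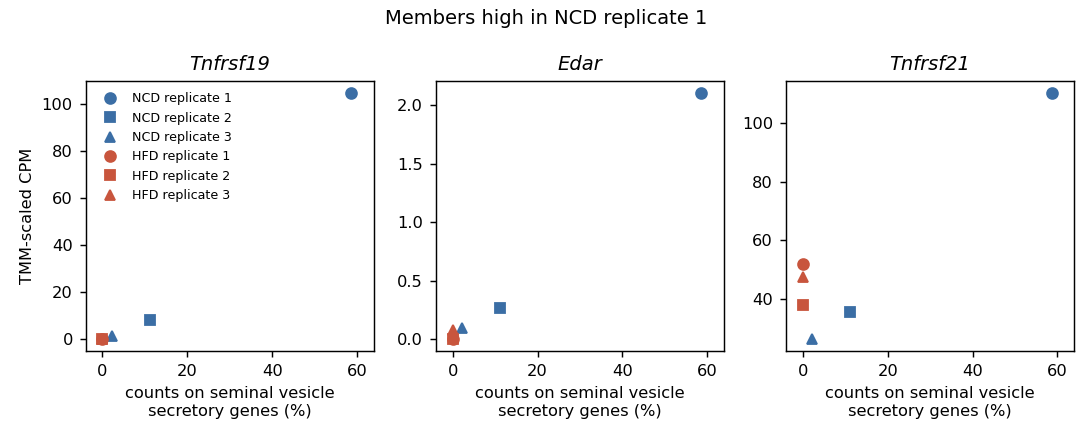
TMM-scaled CPM of Tnfrsf19, Edar and Tnfrsf21 against the percentage of a library's counts on 11 seminal vesicle secretory genes, with a point for each mouse (NCD blue, HFD red). NCD replicate 1, at 58.6%, is the highest in each panel, and the HFD libraries lie at the left edge, near 0 counts for Tnfrsf19 and Edar and between 38.0 and 51.9 scaled CPM for Tnfrsf21.

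Between genes, levels were compared per kilobase (kb) of exon. On NCD the highest members were Tnfrsf1a at 78.0 ± 29.9, Ltbr at 42.6 ± 7.07, Fas at 16.6 ± 3.71, Tnfrsf21 at 15.8 ± 12.7 and Tnfsf12 at 12.3 ± 0.669 scaled CPM per kb (SD, n = 3 mice). On HFD they were Tnfrsf1a at 134 ± 32.9, Ltbr at 48.0 ± 9.71, Tnfrsf1b at 43.6 ± 4.93, Tnfsf12 at 29.6 ± 6.67 and Tnfrsf12a at 20.5 ± 2.26 scaled CPM per kb (SD, n = 3 mice). Over the mice of a diet, neighbors in the NCD order overlapped except Ltbr and Fas, and in the HFD order the overlapping neighbors were Ltbr and Tnfrsf1b alone. Ltbr, the receptor of membrane lymphotoxin, was at 72.6, 99.2 and 97.5 scaled CPM on NCD and 78.3, 108 and 118 on HFD, with overlapping diets (log2 fold change 0.17, SE 0.219, edgeR adjusted p = 0.621). Tnfrsf1b was in the sixth place on NCD and the third on HFD. Without NCD replicate 1 it was in the fifth place on NCD, and Tnfrsf21 was in the sixth, at a mean of 8.51 scaled CPM per kb over 2 mice. Tnf, in contrast, was at 0.435 ± 0.252 scaled CPM per kb on NCD and 2.39 ± 0.272 on HFD (SD, n = 3 mice), far below its receptors on either diet.

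**Figure D5:**
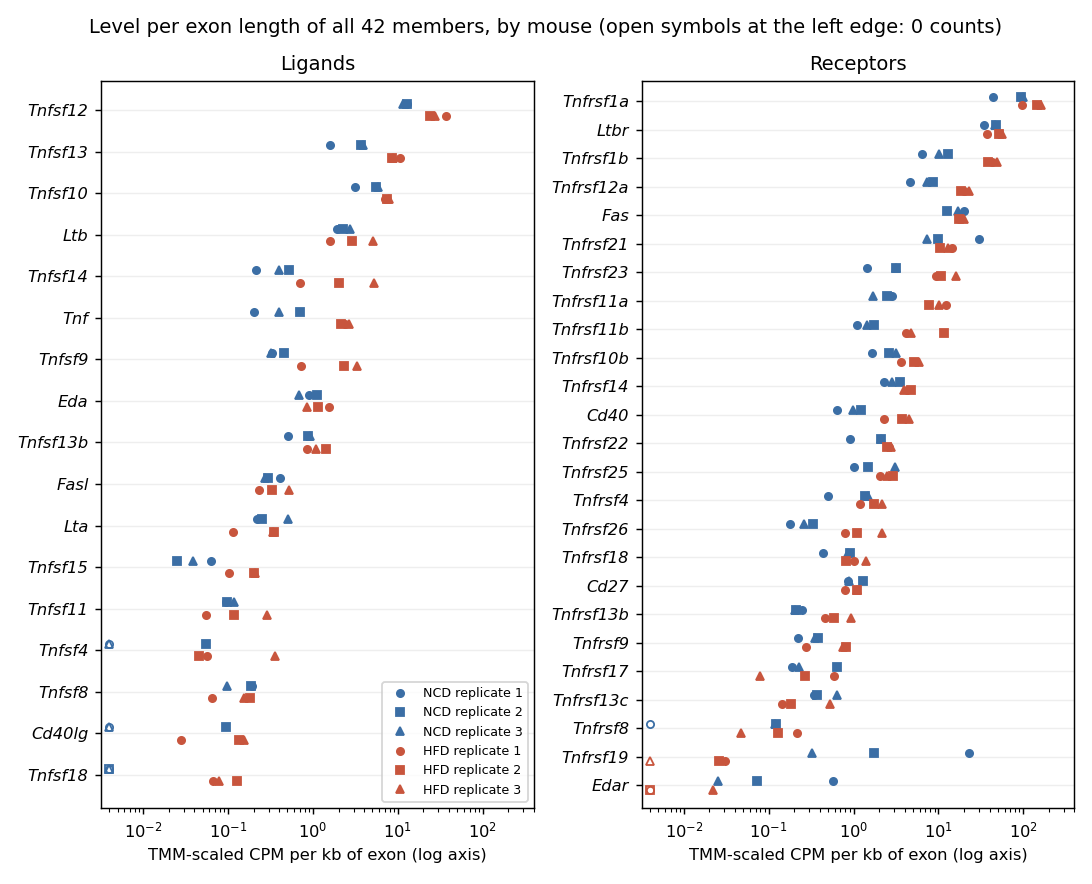
Level of all 42 members in TMM-scaled CPM per kb of exon on a log axis, ordered by the HFD mean, with a point for each mouse (NCD blue, upper row of each gene; HFD red, lower row) and open symbols at the left edge for 0 counts. Tnfrsf1a is the highest receptor and Tnfsf12 the highest ligand, and Tnfrsf19 spans the widest range among the NCD-fed mice.

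Beyond the ligands and receptors, 45 genes of the pathway were examined, and 6 were higher and 0 lower on HFD, where 5.58% and 1.90% of all genes were. Of 23 adaptors, kinases and caspases, Ripk3 and Casp8 passed, and of 13 NF-κB subunits and regulators, Rel, Nfkbie and Tnip1. Ripk3, the kinase of necroptosis, went from 2.59, 6.17 and 5.79 scaled CPM to 18.7, 26.6 and 33.8 (log2 fold change 2.44, SE 0.408, edgeR adjusted p = 0.0283). Casp8, the initiator caspase of death receptors, was at 31.8, 48.3 and 55.3 on NCD and 86.9, 98.8 and 136 on HFD (1.25, SE 0.275, edgeR adjusted p = 0.0496). In both genes the diets were separate. Rel, an NF-κB subunit of leukocytes, had a log2 fold change of 1.24 (SE 0.258, edgeR adjusted p = 0.0447), Nfkbie, an NF-κB inhibitor, one of 1.66 (SE 0.286, edgeR adjusted p = 0.0292), and Tnip1, which restrains TNF receptor signaling together with A20, one of 1.09 (SE 0.148, edgeR adjusted p = 0.0219). Of 5 genes of ligand release, Adam17, which sheds TNF from the membrane, rose from 38.4, 50.4 and 48.0 to 93.4, 82.9 and 93.7 scaled CPM (0.98, SE 0.159, edgeR adjusted p = 0.0260). Tnfaip3, which encodes A20, was just outside the threshold with 6 mice (0.82, SE 0.182, edgeR adjusted p = 0.0501) and passed without NCD replicate 1 (0.74, SE 0.161, edgeR adjusted p = 0.0296) and in DESeq2 (DESeq2 adjusted p = 0.00148). The last 4 pathway genes were the receptors Ngfr, Eda2r and Relt, family genes that the symbols do not match, and the adaptor gene Edaradd. Of these 4, 0 passed in edgeR, 2 had an unadjusted p under 0.05 in edgeR (29.7% of all genes), and DESeq2 called 2 (20.2% of all genes).

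Without NCD replicate 1, 13 of the 45 pathway genes were higher and 1 lower, where 10.7% and 10.1% of all genes were. Adam10, a sheddase like Adam17, was at 104, 73.7 and 77.7 scaled CPM on NCD and 139, 130 and 141 on HFD, and passed without NCD replicate 1 but not with 6 mice (log2 fold change 0.87, SE 0.114, edgeR adjusted p = 0.00929). Tnip2 and Nfkb1 behaved likewise, with log2 fold changes of 0.94 (SE 0.179, edgeR adjusted p = 0.0209) and 0.57 (SE 0.114, edgeR adjusted p = 0.0238). Traf4, a TRAF protein prominent in epithelia, was the gene that was lower. It was at 12.6, 29.0 and 31.3 scaled CPM on NCD and at 7.85, 10.5 and 11.4 on HFD (log2 fold change -1.59 without NCD replicate 1, SE 0.192, edgeR adjusted p = 0.00810), and NCD replicate 1 lay nearest to the HFD-fed mice.

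Promoter sequences are shown for members that were higher on HFD. These are Tnf as the central cytokine, Tnfrsf1b as its receptor and Tnfrsf12a as the receptor of the TWEAK pair. The sequence of Tnfsf18, the gene with 0 counts on NCD, is also shown, although it entered the test through its HFD counts alone. Each is the 250 bases just before the annotated start, 5′ to 3′ on the gene's strand, from RefSeq on GRCm38.p6. The windows lie at chr17:35202008-35202257 on the minus strand for Tnf, chr4:145246871-145247120 on the minus strand for Tnfrsf1b, chr17:23677450-23677699 on the minus strand for Tnfrsf12a and chr1:161494407-161494656 on the plus strand for Tnfsf18. Capitals mark a match, on either strand, to TATAAA, to GAGGAAGT (bound by the myeloid factor PU.1) or to the NF-κB consensus.
Tnf: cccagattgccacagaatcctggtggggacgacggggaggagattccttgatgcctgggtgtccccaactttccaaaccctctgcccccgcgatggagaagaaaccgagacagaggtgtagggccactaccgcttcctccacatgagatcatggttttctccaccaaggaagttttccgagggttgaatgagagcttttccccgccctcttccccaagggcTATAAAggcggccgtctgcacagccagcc
Tnfrsf1b: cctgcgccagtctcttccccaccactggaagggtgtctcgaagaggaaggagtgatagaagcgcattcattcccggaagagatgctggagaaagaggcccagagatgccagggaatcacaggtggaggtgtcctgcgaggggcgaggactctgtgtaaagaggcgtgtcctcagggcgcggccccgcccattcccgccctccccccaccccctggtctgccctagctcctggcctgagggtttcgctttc
Tnfrsf12a: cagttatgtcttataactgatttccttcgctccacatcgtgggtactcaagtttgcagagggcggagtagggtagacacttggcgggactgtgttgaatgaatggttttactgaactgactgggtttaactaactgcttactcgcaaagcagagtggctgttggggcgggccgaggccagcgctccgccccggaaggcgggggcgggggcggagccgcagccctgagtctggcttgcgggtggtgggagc
Tnfsf18: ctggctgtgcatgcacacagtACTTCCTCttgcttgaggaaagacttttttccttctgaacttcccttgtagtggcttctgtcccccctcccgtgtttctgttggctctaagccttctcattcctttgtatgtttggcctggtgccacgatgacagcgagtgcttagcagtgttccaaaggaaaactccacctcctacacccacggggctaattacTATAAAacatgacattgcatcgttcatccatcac

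Such windows were found for 33 of the 42 members. Cd40, Tnfrsf11b, Tnfrsf26 and Tnfsf12, which passed the diet test with 6 mice, had none and were not searched for motifs. Counting the last base before the start as position -1, Tnf holds TATAAA from position -29, near the usual place of a TATA box, and Tnfsf18 holds it from position -34 and GAGGAAGT on the other strand from position -229. Tnfrsf1b and Tnfrsf12a hold none of these motifs. Over the 33 members with a window, TATAAA was found in 6 genes, among them Tnf, Tnfsf11 and Lta, where 12.4% of all windows hold it. GAGGAAGT was found in 1 member (2.44% of all windows), and the NF-κB consensus in 4 (Ltb, Tnfrsf8, Tnfrsf9 and Tnfrsf25; 7.25% of all windows), none of which passed the diet test. The windows of Tnf, Tnfrsf1b and Tnfrsf12a had 57.6%, 62.8% and 58.8% G and C and 10, 12 and 15 CpG, against medians of 52.4% and 6 over all windows, and Tnfsf18 had 48.4% and 5.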

How the data were processed

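The deposited values are unnormalized read counts for each gene in 6 gWAT libraries. Per the labels, libraries were stranded mRNA, and the submitters' processing notes name bcl2fastq 2.20.0, Trimmomatic, HISAT2 2.1.0, StringTie 1.3.4d, DESeq2 and GRCm38 (mm10). The sources used here do not say how multi-mapped or overlapping reads were treated. Of 19790 identifiers, 19742 were paired with a symbol through RefSeq (GRCm38.p6). In edgeR 4.0.16 (R 4.3.3), filterByExpr kept genes by a minimum count of 10 and total of 15, TMM factors were computed, and diets were compared with glmQLFit and glmQLFTest over 15241 genes, or 15510 without NCD replicate 1, with a threshold of 0.05. The SE was obtained by dividing the absolute log2 fold change by the root of F. Exon lengths are unions of GENCODE vM21 exons. The fit was tested on simulated data. These varied less between mice than the libraries here and included no library rich in seminal vesicle RNA, so they bear on the working of the fit alone. DESeq2 1.42.0, other scalings and filters, a replicate block and leaving out each mouse were alternatives. Replicates of a diet differed by more than sampling noise (chi-square divided by its degrees of freedom, 116 to 3680), and p-values measure the spread between these mice.

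Same-numbered mice of the diets did not deviate together (correlations -0.06, -0.05 and 0.01). This gave no sign that the numbers pair mice but cannot exclude it. HFD replicate 3 also carries another number in the deposited counts. The members, gene lists and tests were chosen with earlier results of these data known, and the secretory gene list came from an earlier look at the same libraries. Genes with values in each mouse are members past the threshold in either fit, known ligand and receptor pairs and the 5 highest members on either diet, plus pathway genes past the threshold with 6 mice and the next 5 without NCD replicate 1. Tnfsf14, Tnfsf9, Tnfsf10, Tnfsf4, Tnfrsf10b, Tnfrsf13b, Tnfrsf22, Cd27 and Edar, and the macrophage and within-pair ratios, were singled out after their values were seen. Floors cover counting error only.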

Additional observations from a re-analysis of the deposited data

How the results depend on the processing

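With 6 mice and edgeR, 9 members, 2 ligands, 7 receptors, 6 of the 45 pathway genes and 1139 genes in all passed. DESeq2 gave 18 of 42 members (16 higher, 2 lower), 7, 11, 23 and 3853 of 19056 genes (20.2%). DESeq2 without NCD replicate 1 gave 18 of 42 members, 8, 10, 22 and 5083 of 18882 genes. Both sets of 18 include Tnfsf15, Tnfsf18 and Tnfrsf19, which reached the minimum count of edgeR on 1 diet alone. Leaving out 1 mouse gave 0 to 13 members, 0 to 5 ligands, 0 to 8 receptors, 0 to 14 pathway genes and 2 to 3234 genes in all, the upper ends being those without NCD replicate 1. The replicate block, which leaves fewer degrees of freedom, gave 0, 0, 0, 0 and 12, although there was no sign that the numbers pair the mice. No filter gave 1 ligand and 6 of the 9 members, without Tnf, Tnfrsf11b and Tnfrsf26. Total counts alone gave 2 pathway genes and 5 of the 9 members, without Cd40, Tnf, Tnfrsf12a and Tnfrsf26, and added Tnfrsf19 and Tnfsf15. RLE scaling kept all 9. Scaling by total counts alone shifted the median over all genes (-0.08 with TMM, 0.45 then) and turned the sign of Cd27 (0.46), Lta (0.12), Tnfrsf17 (0.18), Tnfrsf21 (0.50) and Tnfsf8 (0.36), none of which passed and of which Cd27 and Tnfrsf21 lay above that median. Tnfrsf21 was at 0.58 without NCD replicate 1, and at 0.58 with DESeq2 there. Over the fits without 1 mouse the log2 fold changes that changed sign ranged from -0.11 to 0.18 for Cd27, -0.025 to 0.31 for Fas, -0.18 to 0.40 for Fasl, -0.54 to 0.17 for Lta, -0.033 to 0.81 for Ltb, -1.02 to 0.57 for Tnfrsf17, -0.64 to 0.58 for Tnfrsf21, -0.24 to 0.96 for Tnfsf11 and -0.51 to 0.11 for Tnfsf8. The 9 members that passed were higher on HFD in every fit run, and the causes of the other changes were not tested. Counting error is largest for members with few counts, such as Tnfsf11, Cd40lg, Tnfsf4, Tnfsf15, Tnfsf18 and Lta.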
